A study of Mus musculus with 2 samples.

Results

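The 43 genes described here encode enzymes that break down amino acids in the liver, grouped by the amino acid they degrade (tyrosine, tryptophan, histidine, glycine and serine, the sulfur amino acids, the branched-chain amino acids, proline and ornithine, glutamate with aspartate and alanine, and lysine), together with Dpys of pyrimidine breakdown. They were taken from a named list, found by converting RefSeq transcripts to mouse symbols, and where a gene had several transcripts the one with the highest mean level was kept. All 43 were found among the 20317 genes of the mRNA table that had a symbol.

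Hepatocytes receive amino acids from the portal blood and degrade most of them, with the nitrogen passing to urea and the carbon to glucose, ketone bodies or the citric acid cycle. Tyrosine, tryptophan and histidine are broken down mainly in hepatocytes, whereas the first transamination of the branched-chain amino acids takes place largely in muscle and the later steps are used by many tissues. The sulfur amino acid enzymes also set the supply of S-adenosylmethionine, the methyl donor of the cell, and of cysteine for glutathione and taurine.

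The data are 2 RNA-seq libraries made from primary hepatocytes of wild-type (WT) C57BL/6J mice, 1 from animals injected intraperitoneally with oil and 1 from animals injected with CCl4, a hepatotoxin that hepatocytes activate by cytochrome P450 and that causes liver fibrosis on repeated dosing. The CCl4 was a 20% solution in mineral oil, given at 2.5 ml per kg body weight, with 2 injections a week over 8 weeks according to the labels (the methods give 4 weeks for this model, in male mice bought at 5 weeks of age). The cells came from pronase and collagenase perfusion with a density gradient, and the number of mice behind each library was not given. With 1 library in each group, no difference below has a replicate check, no test was made, and the values describe these 2 libraries.

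Levels are RPKM, read numbers scaled to transcript length and to library size, and no value between 0 and 1 RPKM is listed. Fold changes are log2 of (CCl4 RPKM + 0.1) over (oil RPKM + 0.1), computed for the 10689 genes at 1 RPKM or more in both libraries, and a gene was counted as lower or higher from an absolute log2 fold change of 1. The steps between RPKM values of short genes placed the libraries at 57992579 reads for oil and 64655543 for CCl4, so that 1 RPKM was worth 58.0 and 64.7 reads per kilobase, respectively. Intervals given with a fold change are 95% intervals for reads over 1 kilobase of transcript, and they cover counting error only.

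The labelled cell type was present in both libraries, since all 12 hepatocyte markers were listed in each, but it was not alone. The hepatocyte markers summed to 27399 RPKM in oil and 14794 RPKM in CCl4, with a median log2 fold change of -1.03. Albumin (Alb), for example, stood at 8656 and 6476 RPKM, and Cyp2e1, the P450 that activates CCl4, at 645 and 128 RPKM. Stellate cell and myofibroblast markers summed to 74.2 and 885 RPKM, and all 8 of the 10 that could be compared were higher in CCl4, while Ngfr and Pdgfrb were listed at 0 in oil only. Kupffer cell and macrophage markers summed to 1098 and 3127 RPKM (5 of 7 compared higher), sinusoidal endothelial markers to 487 and 816 RPKM (1 of 7), cholangiocyte markers to 50.9 and 170 RPKM (2 of 4, Sox9 listed at 0 in both) and T, B and NK cell markers to 22.1 and 36.2 RPKM (1 of 4, Cd3e listed at 0 in both). Most of the cholangiocyte sum was Spp1, at 37.4 and 145 RPKM. Neutrophil markers summed to 295 and 205 RPKM (1 of 3 higher) and erythroid markers to 2053 and 1413 RPKM (1 of 3 lower). These shifts accompany every enzyme value below, and their part in those values was not tested. In such bulk samples, fewer hepatocytes and less enzyme RNA per hepatocyte cannot be told apart.

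All 43 enzymes had a lower RPKM in the CCl4 library than in the oil library, also with both libraries set to the median gene, whereas with both set to the median hepatocyte marker 22 were below 0 and 21 above. Over all genes compared, 32.4% had a lower RPKM in CCl4, and 5.21% lay below 0 with both libraries set to the median hepatocyte marker. In the oil library the members ranged from 3.48 to 1416 RPKM with a median of 67.8, and in the CCl4 library from 2.39 to 783 RPKM with a median of 32.4. The level left in CCl4 was 23.7 to 68.8% of that in oil. Members above 100 RPKM numbered 15 in oil and 8 in CCl4. Together the 43 enzymes summed to 7626 RPKM in oil, 2.26% of the RPKM of all genes, and to 3530 RPKM in CCl4, 1.26%.

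Of the 43 members, 23 were lower by a log2 fold change of 1 or more and 0 were higher. Among all 10689 genes, 5.48% were lower and 14.3% higher by that amount. The members' median was -1.05 beside 0.30 over all genes, so that the members lay a median of -1.34 from the median gene. By fold change, 37 members stood in the lowest 10% of genes and all 43 in the lowest 20%. Because the members were abundant, the same count was made among the 4079 genes with a mean of 10 RPKM or more, a comparison chosen after the data were seen. There 11.0% of genes were lower by 1 or more, with a median of 0.11, and 22 of the 39 members in this class were lower. With both libraries set to the median gene, 9.68% of all genes and 37 of the 43 members were lower by 1 or more. With both set to the median hepatocyte marker, 0.646% of all genes and 1 of the 43 members were. Across the 43 members, which share both libraries, the fold change and the log2 mean RPKM had a Pearson r of -0.32 and a Spearman rho of -0.32, beside -0.23 and -0.20 across all genes.

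Counting error was small beside most of these differences. The interval of the fold change excluded 0 for all 43 members and lay wholly beyond -1 for 20, and 9 members lay within 0.1 of the fold change that decided a call. The matching shares of all genes are not given here, so these counts describe depth and not a trait of the members.

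**Figure D1:**
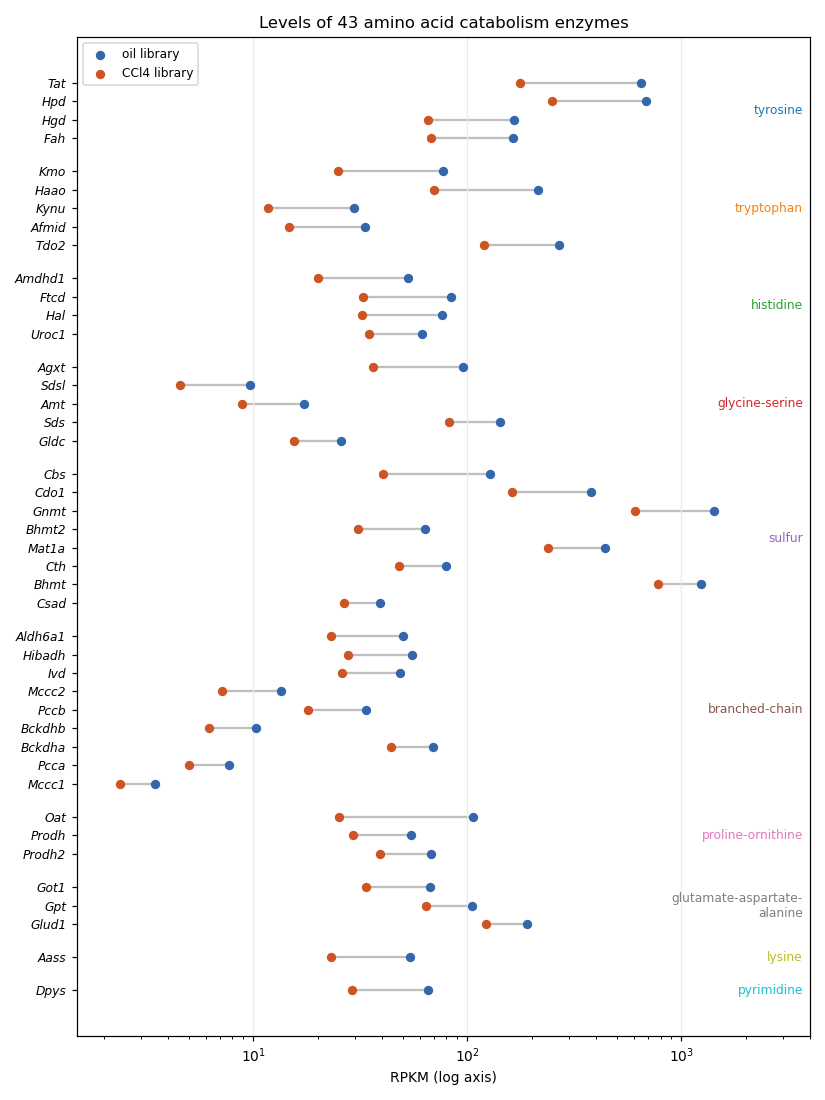
RPKM (log axis) of the 43 enzymes in the oil library (blue) and the CCl4 library (orange), 1 point per gene and library, joined by a line and grouped by amino acid. Every CCl4 point lies to the left of its oil point, from Gnmt at 1416 and 609 RPKM to Mccc1 at 3.48 and 2.39 RPKM. With both libraries set to the hepatocyte markers, 21 of the 43 would lie to the right.

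The largest difference among the members was that of Oat, ornithine aminotransferase, and the smallest that of Mccc1, the biotin-carrying subunit of the leucine enzyme methylcrotonyl-CoA carboxylase. Oat stood at 106 RPKM in oil and 25.1 RPKM in CCl4, a log2 fold change of -2.08 (interval -2.16 to -2.001), and passed from rank 458 to rank 1772 among the genes. Mccc1 stood at 3.48 and 2.39 RPKM, a log2 fold change of -0.52 (interval -0.85 to -0.23). Promoters of RefSeq (GRCm38.p6, 250 bases before to 50 after a listed start) matched 35 of the 43 members. Those of Tat, the tyrosine aminotransferase, and Mccc1 are shown because they stand near the ends of the range (Tat had the second lowest fold change). The promoter of Oat, the member with the lowest fold change, also matched but is not shown. Those of Hgd and Hal are shown because they alone among the members held both a TATA box and a C/EBP motif. Capitals mark the TATA box (TATAAA) and C/EBP (TTGCNNAA) matches on either strand, and the windows without capitals held neither.
Tat (chr8:109990186-109990485, plus strand): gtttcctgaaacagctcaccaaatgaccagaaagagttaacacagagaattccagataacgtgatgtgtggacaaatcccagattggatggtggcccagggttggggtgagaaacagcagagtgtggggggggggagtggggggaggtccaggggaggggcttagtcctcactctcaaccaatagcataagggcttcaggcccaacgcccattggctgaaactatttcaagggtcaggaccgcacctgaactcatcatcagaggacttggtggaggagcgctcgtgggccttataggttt
Mccc1 (chr3:36000629-36000928, minus strand): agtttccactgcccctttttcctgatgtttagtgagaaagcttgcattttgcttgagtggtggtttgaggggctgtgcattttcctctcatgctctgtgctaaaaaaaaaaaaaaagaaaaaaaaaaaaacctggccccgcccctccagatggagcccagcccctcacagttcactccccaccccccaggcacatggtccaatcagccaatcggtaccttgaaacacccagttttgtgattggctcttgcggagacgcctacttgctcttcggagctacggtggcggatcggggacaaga
Hgd (chr16:37579903-37580202, plus strand): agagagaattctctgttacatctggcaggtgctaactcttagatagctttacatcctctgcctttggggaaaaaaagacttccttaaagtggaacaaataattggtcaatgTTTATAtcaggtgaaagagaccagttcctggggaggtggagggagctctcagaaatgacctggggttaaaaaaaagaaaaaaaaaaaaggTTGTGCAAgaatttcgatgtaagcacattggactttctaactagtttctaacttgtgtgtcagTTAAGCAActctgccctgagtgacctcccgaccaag
Hal (chr10:93488518-93488817, plus strand): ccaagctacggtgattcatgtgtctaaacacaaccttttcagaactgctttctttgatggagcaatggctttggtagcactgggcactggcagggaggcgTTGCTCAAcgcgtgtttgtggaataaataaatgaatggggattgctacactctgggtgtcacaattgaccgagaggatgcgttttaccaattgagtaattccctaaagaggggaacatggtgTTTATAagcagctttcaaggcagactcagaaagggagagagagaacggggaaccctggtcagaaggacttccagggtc
Hgd, the homogentisate dioxygenase of tyrosine breakdown, carried its TATA match at position -139 and C/EBP matches at positions -49 and 15, counted from the start as 1. The windows of Hgd and Tat lie around a start inside the annotated gene, and that of Mccc1 around a start just inside its edge. Hal, the histidine ammonia-lyase, carried a TATA match at position -28 and a C/EBP match at position -150.

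These letters were about as frequent in the members' promoters as in all promoters. The TATA box was found in 4 of 35 members (Ftcd, Hal, Hgd and Tdo2), 11.4%, beside 14.1% of the 27025 promoters of the same length, and the C/EBP motif in 4 of 35 (Aass, Hal, Hgd and Prodh2), 11.4%, beside 10.7%. The HNF4 motif CAAAGTCCA was found in 0 of 35, beside 0.496% of all promoters, so a window of this length seldom holds these letters at all. Tat had 53.7% GC and 5 CpG dinucleotides in its window, and Mccc1 had 50.7% and 8. The median GC content was 57.0% for the 19 members lower by 1 or more and 55.3% for the 16 others, beside 52.7% over all promoters. Across the 35 members, GC content and fold change had a Pearson r of 0.04 and a Spearman rho of -0.04, and the number of CpG dinucleotides and fold change 0.11 and 0.096, values given as descriptions of promoters read out in the same 2 libraries.

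The differences were ordered by pathway. All 4 tyrosine and all 5 tryptophan enzymes were lower by 1 or more, with median log2 fold changes of -1.40 and -1.33, as were 3 of 4 histidine enzymes, with a median of -1.30. Of the others, 2 of 5 glycine and serine enzymes (median -0.96), 4 of 8 sulfur amino acid enzymes (-0.97), 2 of 9 branched-chain enzymes (-0.90), 1 of 3 proline and ornithine enzymes (-0.91) and 0 of 3 glutamate, aspartate and alanine enzymes (-0.71) reached that fold change. A change of scaling adds the same amount to every member, so it cannot alter the distances between pathways and is no check of them. With both libraries set to the hepatocyte markers, the medians of tyrosine, tryptophan and histidine were -0.37, -0.30 and -0.27, and those of glycine and serine, sulfur and branched-chain enzymes 0.066, 0.064 and 0.12. Median levels in oil were 405, 77.1 and 69.2 RPKM for tyrosine, tryptophan and histidine enzymes. Those of glycine and serine, sulfur and branched-chain enzymes were 25.7, 253 and 33.8 RPKM. The part of level and of cell mixture in this order was not tested. The 13 tyrosine, tryptophan and histidine enzymes had a median of -1.33, a distance of -0.43 from the 9 branched-chain enzymes, and 12 of the 13 had a lower fold change than every branched-chain enzyme. Since the pathways were grouped with these results in view and the genes are not replicates, this order is a description.

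**Figure D2:**
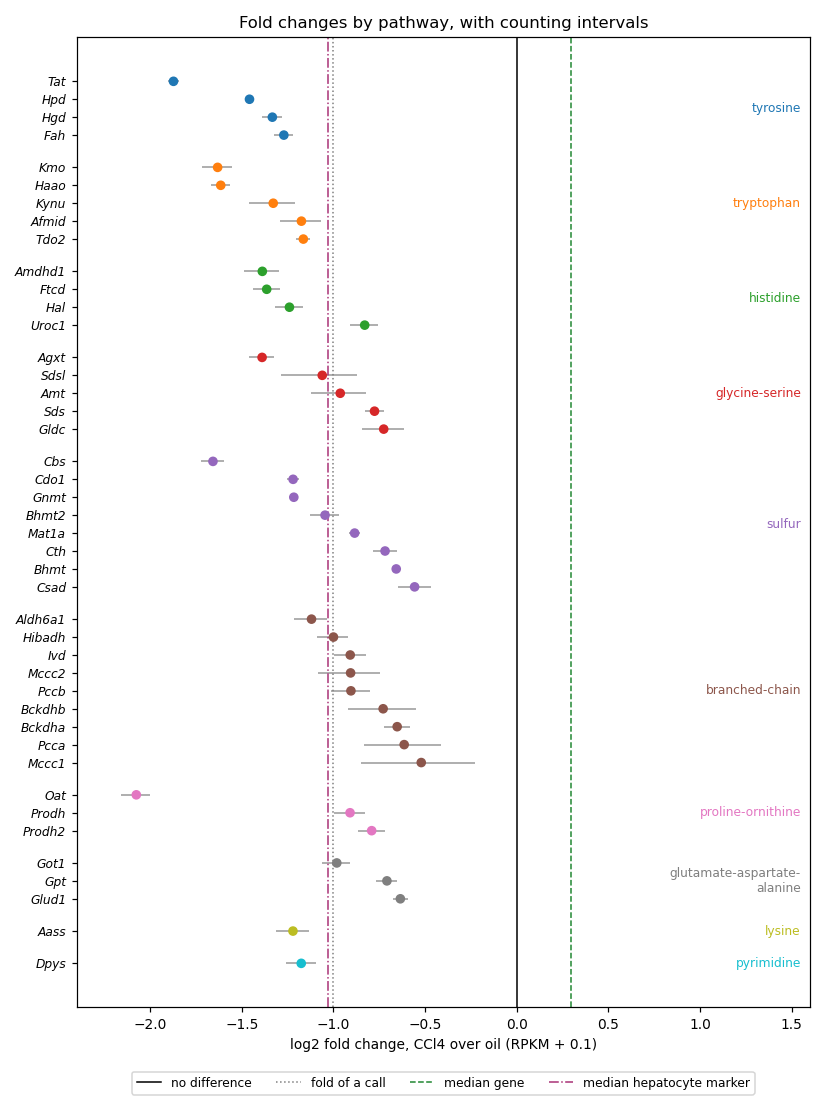
Log2 fold change (CCl4 over oil, RPKM + 0.1) of the 43 enzymes by amino acid, with 95% counting intervals as bars and vertical lines at no difference (0), the fold change of a call (-1), the median gene (0.30) and the median hepatocyte marker (-1.03). All points lie below 0, and 22 of the 43 lie to the left of the hepatocyte marker line, among them 12 of the 13 tyrosine, tryptophan and histidine enzymes.

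Tyrosine is degraded to fumarate and acetoacetate in 5 steps, 4 of which are members. Tat, the aminotransferase that starts the route and is known to be induced by glucocorticoids and fasting, stood at 645 RPKM in oil and 176 RPKM in CCl4. Its log2 fold change of -1.87 was the second lowest of the 43, and its rank among genes went from 66 to 243. Hpd, the dioxygenase that makes homogentisate, stood at 681 and 248 RPKM (log2 fold change -1.46). Hgd, whose promoter is printed above, opens the ring of homogentisate and stood at 165 and 65.5 RPKM (-1.33). Fah, the last enzyme, whose loss causes hereditary tyrosinaemia, stood at 163 and 67.5 RPKM (-1.27). The 4 together left 33.7% of their summed oil RPKM in CCl4, the lowest share of the pathways with more than 1 member.

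Of 5 other listed enzymes around tyrosine, 3 were lower by 1 or more and 0 were higher. Gstz1, the isomerase between Hgd and Fah, stood at 190 and 75.2 RPKM (log2 fold change -1.33). Pcbd1, a dehydratase that recycles tetrahydrobiopterin, stood at 142 and 66.3 RPKM (-1.09). Gch1 and Qdpr, which make and recycle the same cofactor, had log2 fold changes of -0.97 and -0.89, nearer to 0 than the 4 members.

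Tryptophan is cleaved by Tdo2 and passes through kynurenine toward NAD or full oxidation. Tdo2, the dioxygenase that commits tryptophan to this route in hepatocytes, was the most abundant of the 5 members at 268 RPKM in oil and 119 RPKM in CCl4 (log2 fold change -1.16). Afmid, the formamidase of the second step, stood at 33.3 and 14.7 RPKM (-1.18). Kmo, the mitochondrial hydroxylase of kynurenine, was at 77.1 and 24.8 RPKM (-1.63). Kynu, the kynureninase, was at 29.7 and 11.7 RPKM (-1.33), and Haao, which makes the precursor of quinolinate, at 214 and 69.9 RPKM (-1.62). Kmo and Haao were thus further from 0 than Tdo2 and Afmid, and their intervals (-1.72 to -1.55 and -1.67 to -1.57) did not meet those of Tdo2 (-1.20 to -1.13) and Afmid (-1.29 to -1.07).

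Of the other tryptophan enzymes, 5 of the 6 compared were lower by 1 or more and 0 were higher. Aadat, a kynurenine aminotransferase, stood at 16.5 and 4.20 RPKM (log2 fold change -1.95), and Acmsd, which draws the route away from NAD, at 6.10 and 1.84 RPKM (-1.68). Kyat3, Ido2 and Kyat1 had log2 fold changes of -1.48, -1.37 and -1.30. Ido1, the dioxygenase that immune cells use for the same first step as Tdo2, was listed at 0 in both libraries.

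Histidine is deaminated by Hal and converted in 3 further steps to glutamate and a folate-bound one-carbon unit. Hal stood at 76.6 RPKM in oil and 32.4 RPKM in CCl4 (log2 fold change -1.24). Uroc1, the urocanase of the second step, stood at 61.7 and 34.7 RPKM (-0.83) and was the only 1 of the 4 that did not reach -1. Amdhd1, which follows Uroc1, was at 52.6 and 20.0 RPKM (-1.39). Ftcd, which passes the one-carbon unit to tetrahydrofolate, was at 84.3 and 32.7 RPKM (-1.36). The interval of Uroc1 (-0.91 to -0.76) lay apart from those of the other 3, of which the nearest was Hal (-1.32 to -1.17). Aldh1l1, which oxidises the folate-bound unit further, stood at 344 and 148 RPKM (-1.21).

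Glycine and serine enzymes had log2 fold changes from -1.39 to -0.73. Sds, serine dehydratase, which feeds serine into glucose synthesis, stood at 142 RPKM in oil and 82.6 RPKM in CCl4 (log2 fold change -0.78), and its relative Sdsl at 9.61 and 4.55 RPKM (-1.06, interval -1.29 to -0.87). Gldc and Amt, subunits of the mitochondrial glycine cleavage system, were at 25.7 and 15.5 RPKM (-0.73) and at 17.3 and 8.84 RPKM (-0.96). Agxt, the aminotransferase that removes glyoxylate and whose loss causes primary hyperoxaluria, was at 95.6 and 36.4 RPKM (-1.39). Agxt was thus the furthest from 0 of the 5.

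Of 9 other glycine and serine enzymes compared, 5 were lower by 1 or more and 0 were higher. Hao1, the glycolate oxidase that makes glyoxylate, was at 80.8 and 22.3 RPKM (log2 fold change -1.85), and Grhpr, the glyoxylate reductase, at 87.7 and 36.3 RPKM (-1.27). Shmt1, Dmgdh and Pipox, of serine, dimethylglycine and sarcosine or pipecolate breakdown, had log2 fold changes of -1.32, -1.13 and -1.02.

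The sulfur amino acid enzymes held the most abundant members. Mat1a, the liver enzyme that makes S-adenosylmethionine from methionine, stood at 442 RPKM in oil and 239 RPKM in CCl4 (log2 fold change -0.88). Gnmt, which consumes S-adenosylmethionine by methylating glycine, stood at 1416 and 609 RPKM (-1.22) and passed from rank 29 to rank 43 of all genes. Bhmt, which remakes methionine from homocysteine with betaine, stood at 1235 and 783 RPKM (-0.66), and Bhmt2 at 63.6 and 30.7 RPKM (-1.05). Bhmt was the lower of the pair Gnmt and Bhmt in oil and the higher in CCl4, and its rank went from 33 to 22 although its RPKM was lower. Bhmt and Bhmt2 are close copies of each other, and how reads shared between them were counted was not given.

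Homocysteine that is not remethylated goes to cysteine through Cbs and Cth. Cbs, cystathionine beta-synthase, stood at 127 RPKM in oil and 40.2 RPKM in CCl4, and its log2 fold change of -1.66 was the lowest of the 8. Cth, which releases cysteine from cystathionine, stood at 79.2 and 48.1 RPKM (-0.72). Cdo1, which oxidises cysteine, was at 379 and 163 RPKM (-1.22), and Csad, which leads its product to taurine, at 39.0 and 26.4 RPKM (-0.56). Along this chain, Cbs and Cdo1 were further from 0 than Cth and Csad, by more than their counting intervals. The 3 listed transcripts of Cbs all gave -1.66.

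Outside the 43, Ahcy, which splits S-adenosylhomocysteine, stood at 491 and 211 RPKM (log2 fold change -1.22), close to Gnmt one step before it. Tst and Suox, which handle sulfide and sulfite, had log2 fold changes of -1.03 and -1.01. Of 8 other sulfur enzymes compared, 3 were lower by 1 or more and 0 were higher.

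**Figure D3:**
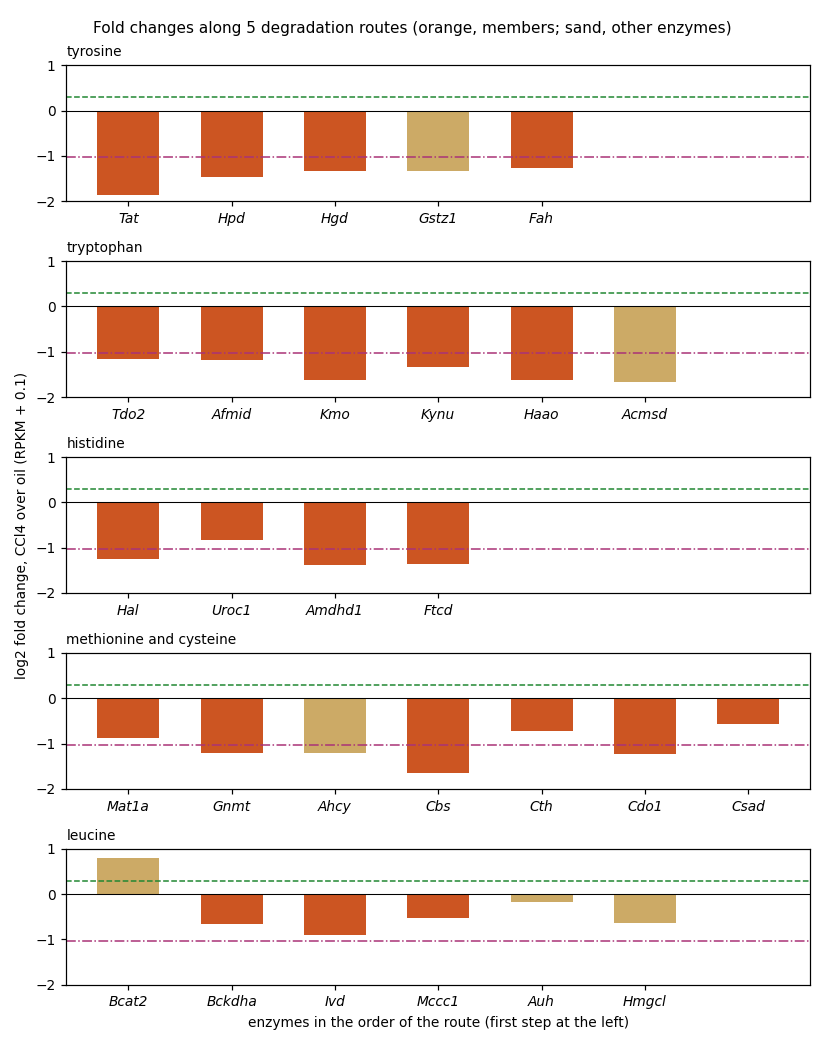
Log2 fold change (CCl4 over oil, RPKM + 0.1) along 5 degradation routes, with the first enzyme at the left, members in orange, other enzymes in sand, and lines at the median gene (0.30, dashed) and the median hepatocyte marker (-1.03, dash-dot). Each bar of the tyrosine and tryptophan routes passes the hepatocyte marker line, whereas no bar of the leucine route does and Bcat2, its first enzyme, stands above 0. Of the enzymes listed with tyrosine and tryptophan, Qdpr (-0.89), Gch1 (-0.97) and Qprt (-0.97) do not pass that line.

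The branched-chain enzymes lay closest to 0 among the pathways of more than 3 members. Bckdha and Bckdhb, subunits of the dehydrogenase that irreversibly commits leucine, isoleucine and valine to oxidation, stood at 69.2 RPKM in oil and 44.0 RPKM in CCl4 (log2 fold change -0.65) and at 10.3 and 6.20 RPKM (-0.73). Ivd, the leucine enzyme that follows, was at 48.7 and 25.9 RPKM (-0.91). Mccc2, the partner of Mccc1, was at 13.5 and 7.13 RPKM (-0.91). Pcca and Pccb, subunits of propionyl-CoA carboxylase, where valine and isoleucine meet, were at 7.73 and 5.01 RPKM (-0.61) and at 33.8 and 18.0 RPKM (-0.90). Hibadh and Aldh6a1, of valine breakdown, were at 55.3 and 27.6 RPKM (-1.0002) and at 50.4 and 23.1 RPKM (-1.12), and were the only 2 of the 9 to reach -1. The interval of Hibadh (-1.09 to -0.92) held the fold change of a call.

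In each of the 3 pairs of subunits in this group, the partners stood apart in level in both libraries. Their fold changes differed most in Mccc1 and Mccc2, the former with few reads and a wide interval. The intervals overlapped for Bckdha (-0.72 to -0.58) and Bckdhb (-0.92 to -0.55), for Mccc1 and Mccc2 (-1.08 to -0.75), and, by a narrow margin, for Pcca (-0.84 to -0.41) and Pccb (-1.01 to -0.80). Of 12 other branched-chain enzymes compared, 0 were lower and 0 higher by 1 or more. The 2 of the 12 that stood above 0 are named here after their values were seen. Bcat2, the aminotransferase of the first step, was at 5.54 and 9.75 RPKM (log2 fold change 0.80), and Bckdk, the kinase that inhibits the dehydrogenase, was at 4.08 and 7.30 RPKM (0.82).

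Oat, with the lowest fold change of all, takes ornithine toward glutamate and proline, while Prodh and Prodh2 oxidise proline and hydroxyproline. Prodh stood at 54.9 RPKM in oil and 29.2 RPKM in CCl4 (log2 fold change -0.91), and Prodh2 at 67.8 and 39.1 RPKM (-0.79). Oat was the only member below -2, and also the only 1 still below -1 with both libraries set to the hepatocyte markers, at -1.05. Hoga1, of hydroxyproline breakdown, stood at 42.8 and 19.2 RPKM (-1.15), the only 1 of 4 other proline and ornithine enzymes compared that was lower by 1 or more. Glutaminase Gls2, the liver form, stood at 74.1 and 36.2 RPKM (-1.03).

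The enzymes of glutamate, aspartate and alanine, which link the pathways through 2-oxoglutarate, had fold changes nearer to 0. Glud1, glutamate dehydrogenase, stood at 191 RPKM in oil and 123 RPKM in CCl4 (log2 fold change -0.64). Gpt and Got1, the alanine and aspartate aminotransferases that leak into serum on liver injury, stood at 105 and 64.1 RPKM (-0.71) and at 66.7 and 33.7 RPKM (-0.98). Glul, which makes glutamine in the hepatocytes around the central vein, was at 212 and 151 RPKM (-0.48). None of these 4 reached -1.

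The lysine enzyme Aass, which carries out the first 2 steps in mitochondria, stood at 53.9 RPKM in oil and 23.1 RPKM in CCl4 (log2 fold change -1.22). Of 3 later lysine enzymes compared, 2 were lower by 1 or more, Aldh7a1 at 77.6 and 36.6 RPKM (-1.08) and Gcdh at 146 and 56.1 RPKM (-1.37), and Dhtkd1 stood at 4.12 and 2.84 RPKM (-0.52). Dpys, the dihydropyrimidinase, was at 65.4 and 28.9 RPKM (-1.18), and the enzymes before and after it, Dpyd and Upb1, at 45.5 and 14.8 RPKM (-1.61) and at 79.7 and 32.0 RPKM (-1.31). All 3 enzymes of pyrimidine breakdown were thus lower by 1 or more.

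Over the whole list of 61 other enzymes of these pathways, 56 could be compared, of which 23 were lower by 1 or more, 1 was higher and 32 were neither, with a median of -0.92. Over all genes compared, 5.48% were lower and 14.3% higher by that amount. The order by pathway was only in part that of the members. Lower by 1 or more were 5 of 6 tryptophan enzymes (median -1.43) and 0 of 12 branched-chain enzymes (-0.71). Tyrosine, histidine, and glycine and serine enzymes had medians of -1.09, -1.05 and -1.02. Unlike in the members, the medians of sulfur (-0.68) and proline and ornithine enzymes (-0.064) lay nearer to 0 than that of branched-chain enzymes. With both libraries set to the hepatocyte markers, 0 of the 56 were lower and 7 higher by 1 or more, beside 0.646% of all genes lower and 69.0% higher.

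**Figure D4:**
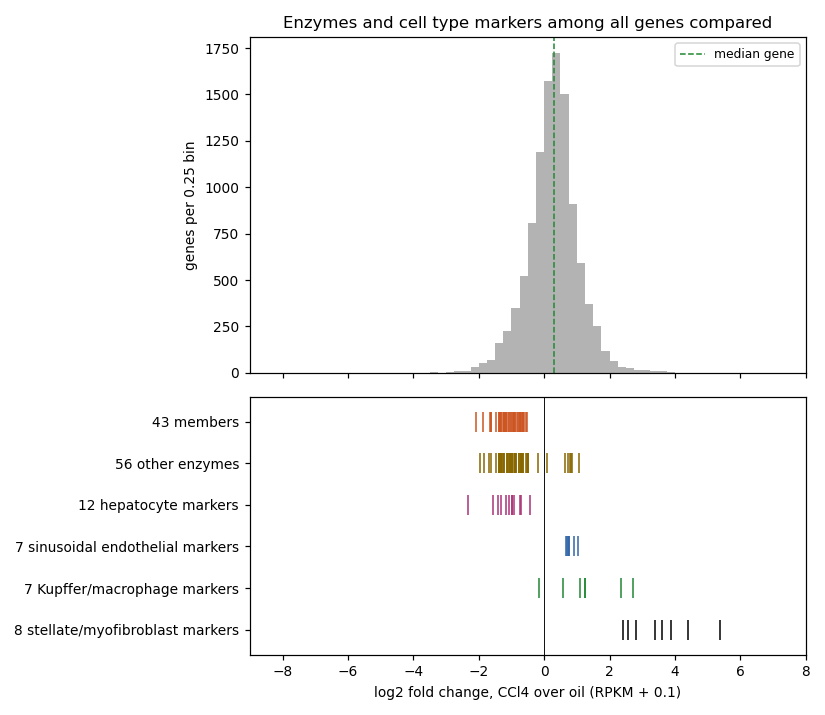
Above, the number of genes in bins of 0.25 of log2 fold change (CCl4 over oil, RPKM + 0.1) for the 10689 genes compared, with the median gene at 0.30. Below, 1 tick per gene shows that the 43 enzymes lie from -2.08 to -0.52, over the same range as most hepatocyte markers, and that all 8 stellate and myofibroblast markers lie above 2.

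Grouped by other properties, the members differed by compartment more than by cofactor. Of 25 members in the cytosol, 17 were lower by 1 or more (median -1.18), and of 17 in the mitochondrion 5 were (median -0.91). Compartment and pathway overlap, since all 9 branched-chain enzymes are mitochondrial and the tyrosine, tryptophan and histidine enzymes except Kmo are cytosolic. Whether the split follows compartment or pathway was not tested. Of 12 enzymes that use pyridoxal phosphate, the vitamin B6 cofactor of aminotransferases, 6 were lower (median -1.02), and of the 31 others 17 (median -1.05).

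The values of members that lie side by side in the genome are given next, without a comparison to other pairs of members. In RefSeq (GRCm38.p6), Hal (chr10:93488768-93516761) and Amdhd1 (chr10:93523338-93540111), both histidine enzymes, are 6576 bases apart with no coding gene between them, and had log2 fold changes of -1.24 and -1.39. Sdsl (chr5:120458193-120472825) and Sds (chr5:120476547-120483932) are 3721 bases apart, with -1.06 and -0.78. Bhmt (chr13:93616891-93637758) and Bhmt2 (chr13:93656097-93674302) are 18338 bases apart, with -0.66 and -1.05, and their intervals (-0.67 to -0.64 and -1.13 to -0.97) did not overlap.

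Transcription factors known to act on genes of this kind had mixed values. Hnf4a, the nuclear receptor that maintains hepatocyte genes and is also 1 of the 12 hepatocyte markers, stood at 149 RPKM in oil and 50.1 RPKM in CCl4 (log2 fold change -1.57), and Klf15, a factor known for amino acid breakdown in fasting, at 50.7 and 22.0 RPKM (-1.20). These were the 2 of 7 regulators lower by 1 or more, and 0 were higher. The other 5 lay between -0.91 and 0.24, and Ppargc1a was listed at 0 in both libraries. Of 9 amino acid transporters compared, 2 were lower and 0 higher, with a median of -0.83. Slc38a3, which carries glutamine, stood at 165 and 71.1 RPKM (-1.21), and Slc25a15, which brings ornithine into mitochondria, the substrate of Oat, at 67.2 and 31.2 RPKM (-1.10).

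The direction of these differences rests on how the libraries are set against each other. As deposited, without the 10 most abundant genes in the library total, and with both libraries set to the median gene, all 43 members lay below 0, and with both set to the median of the hepatocyte markers 22 lay below and 21 above, beside 5.21% of all genes below.

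**Figure D5:**
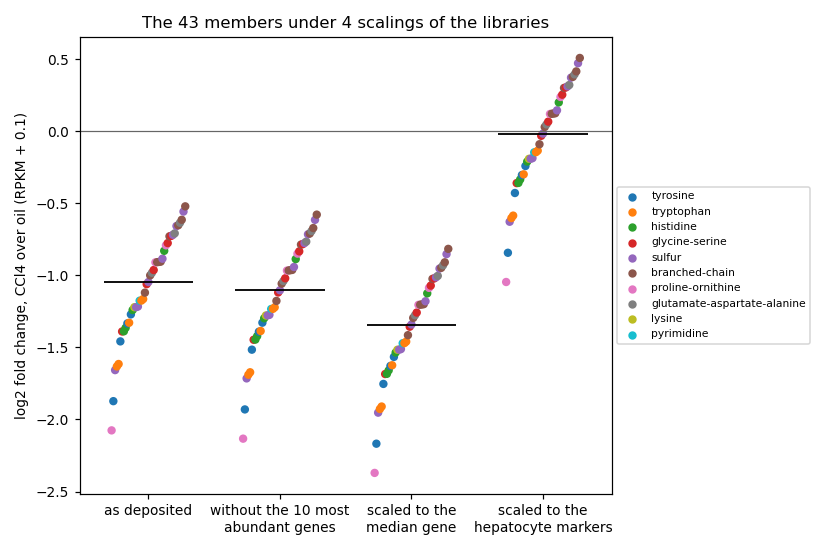
Log2 fold change (CCl4 over oil, RPKM + 0.1) of the 43 members under 4 scalings of the libraries, 1 point per gene in ascending order, coloured by pathway, with the median as a horizontal line. The medians are -1.05 as deposited, -1.34 set to the median gene and -0.017 set to the hepatocyte markers, where 21 of 43 points lie above 0 (5.21% of all genes lie below 0 there), and each scaling shifts all points alike.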

How the data were processed

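Primary mouse hepatocytes were compared in 2 libraries, 1 oil and 1 CCl4. The authors deposited RPKM values per transcript, mapped with TopHat2 to mm10 after CASAVA 1.4 per the labels' processing notes, and the counting program is not given in the sources used here. The columns of the authors' own comparison (log2 fold changes and p and q values) were not used. RefSeq transcripts were matched to symbols with the RefSeq gene table, which covered 27049 of 27457 mRNA transcripts. Genes listed at 0 in a library were not compared (8305 in both, 1162 in oil only, 161 in CCl4 only), since the lowest listed value was 1.00 RPKM.

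Fold changes were computed with a pseudocount of 0.1 RPKM in Python 3.11.15 with pandas 2.3.3, numpy 2.4.6 and scipy 1.17.1, and figures with matplotlib 3.10.9. With 1 library per group no test was made. The reads behind 1 RPKM were found from RefSeq genes under 400 bases in the mRNA and annotated lncRNA tables, whose RPKM then gave whole reads (within 0.03) for 174 of 178 genes in oil and 186 of 191 in CCl4. Counting intervals were exact 95% (Clopper-Pearson) and used the reads of 1 kilobase, so they are wide for longer transcripts. The calculation was checked on simulated data.

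The 43 members, the pathways, the other enzymes and the marker lists were chosen with earlier results of these data known. Named beside all members were Glul, the cell type markers, and those other enzymes, regulators and transporters that were lower or higher by a log2 fold change of 1, and a few items that the rule covers are not reported here. Qdpr, Gch1, Qprt, Dhtkd1, Bcat2, Bckdk, Ido1 and Ppargc1a fall outside this rule and were named after their values were seen. The alternatives were other pseudocounts, filters, scalings, transcript sums and thresholds. Tables of new lncRNAs were not used here.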

Additional observations from a re-analysis of the deposited data

How the results depend on the processing

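No paired analysis was possible because each group holds 1 library, and no library could be left out. With both libraries set to the median gene, the members lower by 1 or more numbered 37, the other enzymes 38, the members' median was -1.34, their summed fold change -1.41, and the medians of tyrosine, tryptophan, histidine, glycine and serine, sulfur and branched-chain enzymes -1.69, -1.62, -1.60, -1.26, -1.26 and -1.20. With both set to the hepatocyte markers, these values were 1, 0, -0.017, -0.082, -0.37, -0.30 and -0.27, and the last 3 medians reversed to 0.066, 0.064 and 0.12, which follows from the shift of 1.03 that this scaling adds to every gene. All genes then split into 69 lower and 7375 higher, beside 586 and 1527 as deposited and 1035 and 857 with the median gene. Without the 10 most abundant genes in the library total, the summed fold change was -1.17 (-1.11 as deposited), the tyrosine median -1.45 and the sulfur median -1.02, and with transcripts summed the summed fold change was -1.13. At a log2 fold change of 2, 1 member and 0 other enzymes were lower (0.702% of all genes), and at 0.5 all 43 and 45 of 56 (13.6%). The other 55 values, with no or 1 RPKM added, the wider filter and the remaining settings, kept their direction and moved less than their counting interval or, for counts, less than 1.5 times. Depth limited each member's fold change to within 0.016 to 0.31 on either side.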
